A study of Drosophila melanogaster with 18 samples.

Results

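The long non-coding RNAs (lncRNAs) of 48 hr APF (after puparium formation) Drosophila pupae were examined at the level of exon records, where a record is 1 exon of 1 annotated transcript. Records were taken where the gene's FlyBase symbol starts with "lncRNA:", and the dosage compensation RNAs roX1 and roX2 were left out. This gave 3090 records of 1896 genes among the 87508 records of 17753 genes that were counted in every library. The reference annotation classes all 1896 of these genes as non-coding RNA.

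The 18 libraries formed 4 groups. Male TRAP and male total mRNA had 5 libraries each (replicates 1, 2, 3, 5 and 6), and female TRAP and female total mRNA had 4 each (replicates 2, 3, 4 and 5). TRAP (translating ribosome affinity purification) pulls down ribosomes that carry a GFP-tagged ribosomal protein, here UAS-GFP::RpL10A switched on by fru P1-Gal4, the driver for cells that use the P1 promoter of fruitless. Each total mRNA library was made from a portion of its TRAP partner's lysate of pooled whole pupae, set aside before the purification. Animals of all 4 groups had the same transgenes in a w background, namely 1 copy of the driver, 1 of the tagged ribosomal protein and 1 of a UAS-Gal4 insertion that the study's strain list calls not functional. They were kept at 25°C and sorted by sex. Because whole pupae were used, TRAP reports any cell with driver activity and total mRNA every tissue, and in such bulk samples fewer cells of a type and less RNA per cell cannot be told apart. The labels do not say whether replicates came from separate cultures, so p-values measure the spread between these libraries.

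LncRNAs are transcripts without a long conserved reading frame. Many are spliced and polyadenylated like mRNAs, some give rise to microRNAs, and others act in the nucleus or lie beside genes that they regulate. In Drosophila a large share of annotated lncRNAs is known from the testis, and a smaller set is known from the nervous system. Ribosome association of such RNAs does not by itself mean that a protein is made.

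Depth was 24901633 to 67491630 counts per library, and levels are given as CPM, the counts of a record scaled to library size. The fru gene itself was higher after TRAP, with 186.1 to 333.2 CPM against 62.6 to 77.3 CPM in males and 201.3 to 310.0 CPM against 71.5 to 118.5 CPM in females. Summed marker genes also moved with the purification and with sex. The 6 neuronal markers were higher in TRAP, at 1229.87 to 2392.57 against 281.51 to 420.86 CPM in males and at 1635.9 to 2593.66 against 428.47 to 656.86 CPM in females. The 4 fat body markers were also higher in TRAP, at 1583.73 to 6154.49 against 145.28 to 295.87 CPM in males and 5626.74 to 11553.78 against 197.92 to 280.1 CPM in females. The 5 muscle markers were lower, at 1003.26 to 1429.38 against 1862.63 to 2168.1 CPM in males and 1714.65 to 2179.38 against 4521.67 to 5195.19 CPM in females. The 5 glial markers were at 64.17 to 219.41 and 50.02 to 60.8 CPM in the male groups and at 149.62 to 246.77 and 95.76 to 101.03 CPM in the female groups. The 4 female germline markers found were at 0.85 to 2.89 CPM in every library, and the 10 male germline markers are given with the sex comparisons. The part of these cell types in the results below was not tested. Male TRAP replicate 1 stood apart from the other 4 male TRAP libraries, with the highest male germline sum (5610.4 against 1506.28 to 3212.58 CPM) and the lowest fat body sum.

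Most lncRNA records were near the detection limit. No count was found in any library for 100 records (33 genes), and 2608 records had at least 3 counts in at least 1 library. A record passed in a group when it was over 2 CPM in at least 60% of that group's libraries. By this measure 583 records of 397 genes passed in at least 1 group and 2507 passed in none. The groups differed widely. In male total mRNA 497 records of 344 genes passed (16.08% of the lncRNA records), and in male TRAP 390 records of 258 genes (12.62%). Female TRAP had 184 records of 107 genes (5.95%) and female total mRNA 138 records of 78 genes (4.47%). Over all 87508 records the shares were 36.21%, 36.27%, 30.53% and 28.31% in the same order, so the gap between the sexes was wider among lncRNA records.

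**Figure D1:**
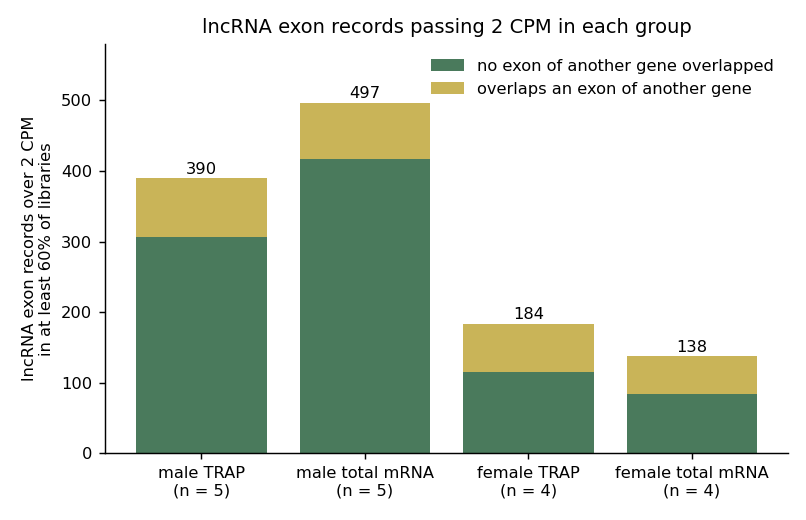
Number of lncRNA exon records (vertical axis) that cleared 2 CPM in 60% or more of a group's libraries, for the 4 groups (bars), split by whether the record overlaps an exon of another gene. The bars reach 390 and 497 records in male TRAP and male total mRNA and 184 and 138 in the female groups, and most of the records in each bar overlap no other exon.

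Overlap with other genes was marked because it bears on which gene a read came from. Of the 3090 records, 2013 lay between genes, 694 lay in an intron of another gene, 143 overlapped an exon of another gene on the same strand, 227 on the opposite strand and 13 on both. Records sharing a strand and bases with another exon passed more often than the rest: 74 of 143 (51.7%) passed in at least 1 group, against 329 of 2013 between genes (16.3%), 148 of 694 in introns (21.3%) and 29 of 227 opposite another exon (12.8%). The strand setting used in counting is not given in the sources used here. Among 105 records of any gene that lie wholly inside a well-covered exon of the opposite strand (at least 20 CPM per kb), the median ratio of read density was 0.031. The ratio was under 0.1 in 74 of these records (70.5%) and over 1 in 5. Overlapping records are named as uncertain below. Records of the same gene also overlapped each other in 613 cases, so records are not independent of one another and gene numbers are given beside record numbers.

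The records that passed fell into a few patterns. The largest, 215 records of 161 genes, passed in male TRAP and male total mRNA and in neither female group. A further 168 records passed in male total mRNA alone and 7 in male TRAP alone. All 4 groups were passed by 105 records of 56 genes. Both TRAP groups but neither total mRNA group were passed by 38 records of 27 genes, and 24 records of 19 genes passed in female groups only.

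Per kb of record and among records of at least 200 bases, the highest mean levels belonged to CR34335, noe, CR42491, CR42862 and CR40469. CR34335 (X, in an intron of DIP-alpha) had 5716.2 CPM per kb in male TRAP and 14052.8 in female TRAP, and noe (3L, in an intron of blot) 3618.7 and 3767.6. CR42491 overlaps an exon on the same strand and is uncertain. Summed over 1 record per gene, lncRNAs took 0.93 to 1.176% of the counts in male total mRNA, 1.442 to 1.821% in male TRAP, 0.973 to 1.297% in female total mRNA and 1.558 to 1.884% in female TRAP. Without CR42862 and noe these shares were 0.567 to 0.723%, 0.693 to 0.805%, 0.475 to 0.646% and 0.762 to 1.003%. In males the TRAP and total mRNA ranges then overlapped, and in females they stayed apart.

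Of the 32 lncRNA genes with a name other than CR and a number, 10 passed in at least 1 group and 7 in all 4: noe, mimi, Hsromega, CRG, marge, cherub and the alphagamma-element CR32865. Several of the best-studied fly lncRNAs were below 2 CPM in all groups at this stage, among them sphinx (known for a role in male courtship), yar (sleep), acal (dorsal closure), bxd and iab4 and iab8 of the bithorax complex, and flam, a piRNA source in somatic cells of the ovary. The best-covered record of sphinx (chromosome 4, 976766 to 977261, in an intron of fuss) had 0 to 9 counts in each male TRAP library and 1 to 7 in each female TRAP library, so a sex difference in it could not be resolved at this depth. That of iab8 was at 0.884 to 1.89 CPM after TRAP and 0.413 to 0.594 CPM in total mRNA of males.

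The question of the first comparison was which lncRNAs were more abundant on tagged ribosomes than in the whole animal. In males 424 lncRNA records (289 genes) cleared 2 CPM in 60% or more of the 10 libraries and were tested with the edgeR exact test, with calls at a Benjamini-Hochberg FDR under 0.2. Of these, 96 records of 59 genes were higher in TRAP (22.6%, against 39.2% of all 30040 records tested) and 241 records of 186 genes were higher in total mRNA (56.8%, against 38.3%). The median log2 fold change was -0.44, beside -0.01 over all records. In females 145 records (84 genes) were tested. There 82 records of 49 genes were higher in TRAP (56.6%, against 35.6% of all 25115 records tested) and 34 records of 18 genes were higher in total mRNA (23.4%, against 33.5%), with a median of 0.45 beside 0.00.

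The different balance of the sexes went with the male-only records. Among the 215 records that passed in both male groups and no female group, 156 were higher in total mRNA, 2 in TRAP and the median log2 fold change was -0.60. Among the 105 records that passed in all 4 groups, 82 were higher in TRAP in males and 7 in total mRNA (median 0.84), and 56 and 26 in females (median 0.41). Records that overlap another exon leaned to TRAP in males, with 40 of 73 higher there and 20 higher in total mRNA, while of the 351 without such an overlap 56 were higher in TRAP and 221 in total mRNA. In females the numbers were 34 and 12 of 57 with an overlap and 48 and 22 of 88 without. The shares of all records with the same pass pattern or overlap were not computed, so these counts do not set lncRNAs apart from other records.

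In both sexes 115 records of 62 genes were tested, and 63 records of 35 genes were higher in TRAP in each. A further 28 records were called higher in TRAP in males and not in females, of which 9 were called lower in females, and 6 records of 4 genes were lower in both (CR31781, CR43436, CR44097 and CR45184). Another 14 records were called lower in TRAP in females only and 1 in males only, 3 were called in neither sex, and none was called higher in TRAP in females only. The shares of all records in these joint categories were not computed, so these counts do not set lncRNAs apart from other records. The difference between the sexes has its own test at the end. There the median over all records also leaned to males, with a log2 value of 0.44, and 0.07 with RLE scaling.

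**Figure D2:**
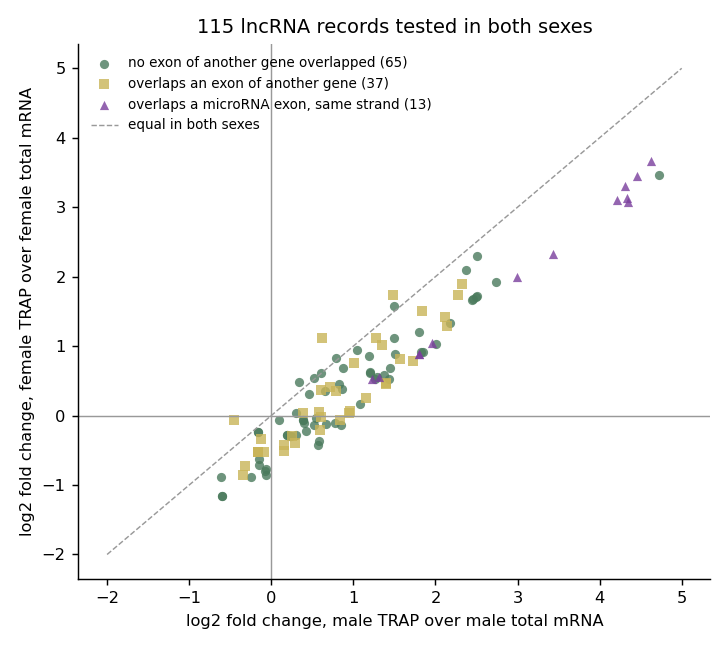
Log2 fold change of TRAP over total mRNA in males (horizontal axis) and in females (vertical axis) for the 115 lncRNA records tested in both sexes, by overlap with other genes, with the dashed line where both sexes are equal. Of the 115 points 108 lie below the line, and 63 records were called higher in TRAP in both sexes. The same shares over all records were not computed, so these counts do not set lncRNAs apart. The 13 records that overlap a microRNA exon lie above 0 on both axes.

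Among records that passed the filter for testing in both sexes and overlap no exon of another gene, CR43314 had the largest difference in each. This record lies on 2L (11970257 to 11971094, minus strand), between genes, 10497 bases from CG16965. In male TRAP it was at 25.2, 73.2, 42.2, 51.7 and 114.7 CPM (replicates 1, 2, 3, 5 and 6) and in male total mRNA at 2.63, 2.66, 2.11, 2.65 and 2.95 CPM. In female TRAP it was at 47.6, 36.2, 91.3 and 65.1 CPM (replicates 2, 3, 4 and 5) and in female total mRNA at 6.83, 6.21, 4.54 and 4.06 CPM. Every TRAP library was above every total mRNA library, with male TRAP replicate 1 the lowest. The log2 fold change was 4.72 ± 0.37 in males (SE between libraries on the log2(CPM + 0.5) scale; edgeR adjusted p = 2.73e-34) and 3.47 ± 0.34 in females (edgeR adjusted p = 9.64e-28). The neighbour CG16965 was not called in either sex, with log2 fold changes of 0.20 (edgeR adjusted p = 0.332) and -0.20 (edgeR adjusted p = 0.421). Another record of CR43314 overlaps mir-bft.

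CR42862 (3L, 229589 to 230964, plus strand, between genes and 7 bases from CG42846) was among the most abundant lncRNAs. Its levels were 2032.2, 4708.7, 3314.6, 3270.2 and 6274.6 CPM in male TRAP and 581.8, 641.4, 648.2, 678.6 and 734.0 CPM in male total mRNA. Female TRAP held 3545.6, 3332.8, 5146.3 and 4463.4 CPM and female total mRNA 1119.6, 1130.3, 1157.0 and 924.2 CPM. The groups did not overlap in either sex, and the log2 fold changes were 2.74 ± 0.27 in males (edgeR adjusted p = 5.13e-24) and 1.93 ± 0.17 in females (edgeR adjusted p = 3.8e-27).

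**Figure D3:**
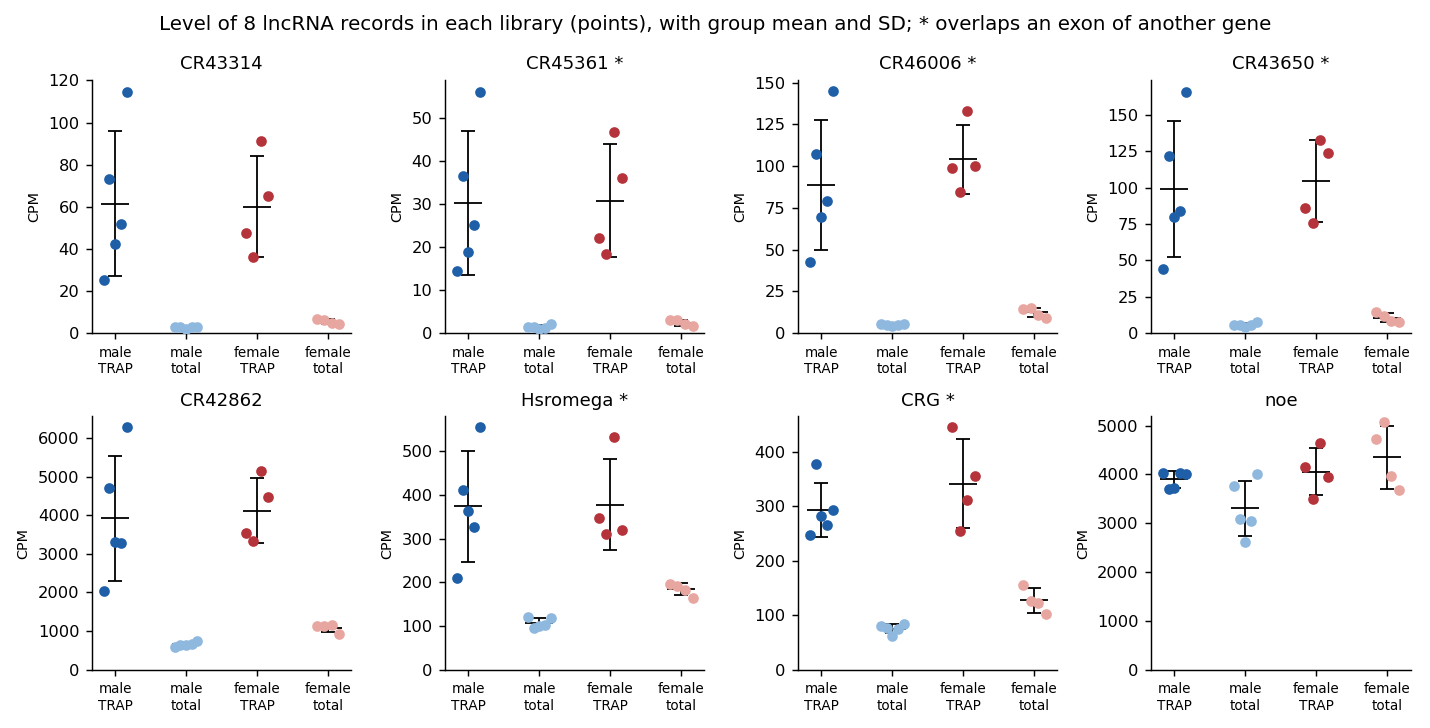
CPM (vertical axes, each from 0) of 8 lncRNA records in every library of the 4 groups (points), with the group mean and SD (bars); an asterisk marks a record that overlaps an exon of another gene. For CR43314, CR45361, CR46006, CR43650, CR42862, Hsromega and CRG every TRAP library lies above every total mRNA library of the same sex, and for noe the groups overlap.

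The other records without overlaps that led the male and female comparisons were CR45232, CR32218, Hsromega, CR45979, CR44024 and CR44832. CR45979 in males and CR44832 in females passed 2 CPM in TRAP and not in total mRNA, where their means were 1.73 and 1.92 CPM. They cleared the filter mainly through TRAP libraries, which largely fixed the direction, so their place in this list is a description. CR45232 (2R, 574 bases from Nox) was at 8.15 to 13.3 CPM in male TRAP and 1.8 to 2.2 CPM in male total mRNA, and at 9.03 to 20.9 and 2.1 to 3.37 CPM in the female groups. Its log2 fold changes were 2.51 ± 0.14 (edgeR adjusted p = 4.81e-42) and 2.30 ± 0.29 (edgeR adjusted p = 1.79e-14). Nox itself rose by less in males, with 0.73 (edgeR adjusted p = 4.2e-07), and was not called in females, with 0.09 (edgeR adjusted p = 0.543). CR32218 lies in introns of Su(Tpl), a chromatin-associated elongation factor gene, and of Mi-2, a chromatin remodeler gene, on their strand, and it moved together with both: 2.18 ± 0.27 and 1.33 ± 0.29 for the lncRNA, 1.5 and 1.15 for Su(Tpl) and 1.53 and 1.69 for Mi-2 in males and females. Reads from unspliced host RNA cannot be told apart from reads of such an intronic lncRNA on the same strand. CR44024 (chromosome 4) rose by 2.94 ± 0.45 in females (edgeR adjusted p = 3.6e-11), where female TRAP replicate 2 was at 42.4 CPM and the other female TRAP libraries at 10.2 to 14.5 CPM. Without a female TRAP library in turn its change in females stayed between 2.28 and 3.17.

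Records that host microRNAs were among those with the largest TRAP values. These members were gathered after their values were seen, and they are records that overlap an annotated microRNA exon on the same strand, 42 records of 31 genes. Of these, 19 records of 12 genes passed in at least 1 group, and a median of 2.9% of their bases fell in another gene's exons. All 13 that were tested in males (7 genes) were higher in TRAP, with a median log2 fold change of 3.43, and all 15 tested in females (9 genes) were higher in TRAP, with a median of 2.32. The shares were 22.6% of lncRNA records and 39.2% of all records tested in males, and 56.6% and 35.6% in females. Since the set was gathered after its values were seen, its counts are a description. Records of the same gene share reads, and the counts here come from poly(A)-selected RNA, so the values are of the longer host transcript and not of the mature microRNA.

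CR45361 overlaps mir-1, which is known as a muscle microRNA. This record was at 14.5, 36.5, 18.9, 25.0 and 56.1 CPM in male TRAP and at 1.46, 1.31, 0.875, 1.1 and 2.0 CPM in male total mRNA. In the female groups it was at 22.0, 18.3, 46.8 and 36.0 CPM and at 3.05, 2.98, 2.06 and 1.61 CPM. The lowest TRAP library was above the highest total mRNA library in each sex, and the log2 fold changes were 4.63 ± 0.37 (edgeR adjusted p = 2.18e-29) and 3.66 ± 0.37 (edgeR adjusted p = 2.71e-25). In males the record passed 2 CPM in TRAP and not in total mRNA, and it cleared the filter mainly through TRAP libraries. The filter thus largely fixed the direction in males, and the male value is a description. The summed muscle markers moved in the opposite direction, as given above.

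CR46006 overlaps mir-276a, a microRNA known from neurons and memory. It was at 42.6 to 144.7 CPM in male TRAP and 4.08 to 5.29 CPM in male total mRNA, with 84.4 to 132.8 and 9.2 to 14.7 CPM in the female groups. The log2 fold changes were 4.34 ± 0.30 in males and 3.07 ± 0.22 in females (edgeR adjusted p = 1.04e-42 and 1.68e-45). CR43650 overlaps mir-8, the fly member of the miR-200 family, and was at 43.9 to 166.0 against 4.08 to 7.28 CPM in males and at 75.5 to 132.6 against 7.69 to 14.3 CPM in females. Its log2 fold changes were 4.31 ± 0.34 and 3.30 ± 0.29 (edgeR adjusted p = 9.47e-35 and 1.81e-33). CR31044, which overlaps mir-279 and mir-996, had means of 56.91 and 7.97 CPM in the male groups and 56.83 and 14.23 CPM in the female groups. CR46004 overlaps mir-276b and passed in both TRAP groups only, with means of 4.53 and 3.97 CPM in male and female TRAP against 0.26 and 0.36 CPM in total mRNA.

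CR43459, which overlaps mir-277 and in a longer record also mir-34, changed less, by 1.80 ± 0.25 in males and 0.89 ± 0.05 in females (edgeR adjusted p = 7.64e-12 and 1.43e-11). let7C is the precursor of let-7, miR-100 and miR-125, which are timing microRNAs of metamorphosis. It passed in male TRAP only, at 1.76 to 2.52 CPM against 0.469 to 0.848 CPM in male total mRNA, 1.23 to 2.46 CPM in female TRAP and 0.471 to 0.804 CPM in female total mRNA. It was too low for the filter in the male comparison. With a filter that asks for 2 CPM in either group its log2 fold change was 1.92 ± 0.11. That filter let it in only through male TRAP, the group where it was higher, so this value is a description.

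Hsromega, the heat shock RNA omega that gathers hnRNP proteins in nuclear omega speckles, was measured by a long record on 3R (21296621 to 21317836, plus strand) of which 0.7% overlaps mir-4951. It was at 209.4, 412.0, 364.1, 326.4 and 556.6 CPM in male TRAP and 120.8, 95.3, 99.5, 101.9 and 117.4 CPM in male total mRNA. Female TRAP libraries held 348.2, 311.1, 531.9 and 320.6 CPM and female total mRNA libraries 196.3, 192.2, 182.2 and 165.1 CPM. The changes were 1.96 ± 0.24 in males (edgeR adjusted p = 4.21e-16) and 1.04 ± 0.19 in females (edgeR adjusted p = 1.59e-07). A shorter Hsromega record without any overlap changed by 2.01 ± 0.25 and 1.03 ± 0.21. The alphagamma-element CR32865 of the heat shock locus at 87C was at 5.02 to 8.94 and 4.13 to 6.68 CPM in the male groups, which overlapped, and changed by 0.67 ± 0.16 in males (edgeR adjusted p = 0.00029) and by -0.12 ± 0.21 in females (edgeR adjusted p = 0.637).

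CRG, known as a regulator of its neighbour CASK and of locomotion, lies wholly on bases of CASK on the same strand and is therefore uncertain. Its record was at 247.8 to 377.3 CPM in TRAP and 61.1 to 83.9 CPM in total mRNA of males, and at 254.0 to 446.1 and 102.1 to 156.5 CPM in the female groups, with no overlap within a sex. The log2 fold changes were 2.12 ± 0.14 (edgeR adjusted p = 4.04e-33) and 1.42 ± 0.22 (edgeR adjusted p = 1.05e-11). A CASK record outside the shared bases changed by 1.42 in males (edgeR adjusted p = 8.2e-13) and 0.71 in females (edgeR adjusted p = 0.000731). mimi, of which 4.3% overlaps mir-9381, rose by 1.31 ± 0.12 and 0.56 ± 0.18 (edgeR adjusted p = 3.69e-16 and 0.00318), and marge (3L, 905 bases from Ocho) by 1.20 ± 0.15 and 0.63 ± 0.06 (edgeR adjusted p = 7.16e-12 and 3.07e-07).

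By contrast, noe was nearly as abundant in total mRNA as in TRAP. It was at 3701.9 to 4021.9 CPM in male TRAP and 2618.9 to 4005.4 CPM in male total mRNA, and at 3488.4 to 4644.1 and 3678.4 to 5065.4 CPM in the female groups. The groups overlapped in both sexes. The change was 0.40 ± 0.15 in males (edgeR adjusted p = 0.0334), where testing all records without a filter took it to 0.20 (edgeR adjusted p = 0.442), and -0.10 ± 0.15 in females (edgeR adjusted p = 0.59).

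The 38 records that passed in both TRAP groups and neither total mRNA group were mostly low, with medians of 4.52 and 4.65 CPM in male and female TRAP and 0.71 and 1.13 CPM in male and female total mRNA. This pattern was fixed by the filter and is a description. The records without an exon overlap at the highest TRAP levels were those of CR43314, CR44832, CR45994, CR45312 and CR45553. CR45994 had means of 10.4 and 10.62 CPM in male and female TRAP against 0.22 and 0.55 CPM in total mRNA, and CR45312 means of 9.58 and 8.92 against 0.40 and 0.94 CPM. CR45936 had 4.46 and 3.92 CPM in TRAP against 0.06 and 0.07 CPM.

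The lncRNAs that were lower in male TRAP than in male total mRNA were nearly all of the male-only kind. CR33218 (X, 2330159 to 2330355, in an intron of Raf) led this list. It was at 1.39, 1.83, 2.03, 1.65 and 1.45 CPM in male TRAP and 6.09, 6.1, 9.4, 9.2 and 7.34 CPM in male total mRNA, and at most at 4 counts in any female library. The groups of males did not overlap and the log2 fold change was -2.02 ± 0.12 (edgeR adjusted p = 9.72e-31). CR32835 (2R) changed by -1.98 ± 0.16, CR32652 by -1.81 ± 0.20, CR32657 by -1.70 ± 0.29, CR32661 by -1.65 ± 0.16 and a short CR9284 record by -1.52 ± 0.21 (edgeR adjusted p from 2.95e-26 to 4.69e-08). The uncertain CR44455, of which 0.2% lies opposite an exon of CR44456, changed by -1.09 ± 0.29, and CR42859, on 17.0% of its bases shared with CG4267, by -0.93 ± 0.22 (edgeR adjusted p = 0.000147 and 0.0001). The 10 male germline markers were lower in 4 of 5 male TRAP libraries (1506.28 to 3212.58 CPM) than in any male total mRNA library (3423.74 to 4683.98 CPM), and higher in male TRAP replicate 1. Without each male library in turn, 179 to 242 lncRNA records were lower in male TRAP, the lowest without male total mRNA replicate 1 and the highest without male TRAP replicate 1.

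In females the lncRNAs lower in TRAP were few. A CR31781 record on 2L (16869462 to 16870997) was at 43.8, 33.8, 41.4 and 39.9 CPM in female TRAP and 87.3, 74.1, 97.2 and 97.0 CPM in female total mRNA, without overlap, and changed by -1.16 ± 0.11 (edgeR adjusted p = 3.34e-16). It also fell in males, by 0.60 on the log2 scale (edgeR adjusted p = 7.86e-05). A different CR31781 record did not. With RLE scaling it was at 0.19 in males (edgeR adjusted p = 0.212) and -0.28 in females (edgeR adjusted p = 0.0702). Next came a CR30055 record in an intron of Sin3A with -0.80 ± 0.09, CR44417 in an intron of Mapmodulin with -0.71 ± 0.06 and CR43242 with -0.28 ± 0.06 (edgeR adjusted p = 7.16e-08, 6.56e-09 and 0.0465). Both hosts are on the opposite strand, and their own records changed by -0.43 and 0.41 in females (edgeR adjusted p = 0.000455 and 0.0497). Another CR30055 record differed. With RLE scaling it was not called in females (-0.11, edgeR adjusted p = 0.608) and was higher in TRAP in males (0.78, edgeR adjusted p = 1.66e-05). CR44097 and CR45184 were uncertain, since all their bases lie in exons of CG6000 and Sf3b3 on the same strand (2.6% of CR44097 also opposite Hsp68), and changed by -0.85 ± 0.12 and -0.72 ± 0.10.

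The sex comparisons asked which lncRNAs differ between males and females, in tagged ribosomes and in the whole animal. Their outcome depended strongly on the filter. A record had to clear 2 CPM in 60% or more of the 9 libraries, that is in 6. Records over 2 CPM in the 5 male libraries and in no female library were thereby left out. With this filter 177 lncRNA records (103 genes) were tested in TRAP. Of these, 22 records of 17 genes were higher in males (12.4%, against 23.3% of all 26443 records tested) and 41 records of 25 genes were higher in females (23.2%, against 18%), and the median log2 male over female fold change was -0.10 beside 0.01 for all records. In total mRNA 120 records (65 genes) were tested, of which 18 records of 13 genes were higher in males (15.0%, against 38.8% of all 23971 records tested) and 81 records of 41 genes were higher in females (67.5%, against 36.6%), with medians of -0.35 and -0.02.

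With 2 CPM in at least 60% of the libraries of either group, the direction of the balance changed. In TRAP 410 lncRNA records were tested, 240 records of 178 genes were higher in males (58.5%, against 33.3% of 33174 records) and 60 records of 37 genes were higher in females (14.6%, against 19.3%). In total mRNA 525 records were tested, 397 records of 293 genes were higher in males (75.6%, against 45.0% of 33905 records) and 123 records of 69 genes were higher in females (23.4%, against 45.1%). The added records numbered 233 in TRAP and 405 in total mRNA, and 218 and 381 of them were higher in males. They entered only through the sex in which they passed 2 CPM, so the filter largely fixed the direction of their calls. The changed balance is therefore a description. This filter also moved the scaling: records tested under both filters had a median log2 value 0.29 lower in total mRNA and 0.04 lower in TRAP. Leaving out 1 female library in place of changing the filter let 5 male libraries of 8 suffice and gave 169 to 174 lncRNA records higher in males in TRAP and 343 or 344 in total mRNA.

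The records that passed only in male groups numbered 390 (293 genes), of which 54 were on X and 38 overlapped an exon of another gene. Their median level was 4.0 CPM in male total mRNA and 2.41 CPM in male TRAP, and 0.058 and 0.048 CPM in female total mRNA and female TRAP. Only 1 of them had no count in any female library, and 57 had under 3 counts in each. All 383 of them that were tested in total mRNA with the filter on either group were higher in males, as were 221 of 222 in TRAP, and the choice of the records fixes this direction.

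The female libraries were not alike in these RNAs. Summed over 1 record per gene, the male-only lncRNAs were at 53.13, 65.33, 45.09 and 18.64 CPM in female total mRNA replicates 2, 3, 4 and 5, and at 56.17, 56.63, 62.07 and 47.18 CPM in female TRAP. In male total mRNA the sum was 2395.72 to 2841.16 CPM and in male TRAP 1088.01 to 2368.96 CPM. The 10 male germline markers were at 39.07, 63.51, 37.38 and 1.08 CPM in female total mRNA and at 17.45, 30.38, 16.5 and 3.82 CPM in female TRAP, with aly under 3 counts in every female TRAP library, so that female replicate 5 was the lowest in both measures and both kinds of library. Of the 293 records, 210 were at 0 in female total mRNA replicate 5, against 40 to 71 in the other 3 libraries. The part of these markers in the female counts was not tested.

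**Figure D4:**
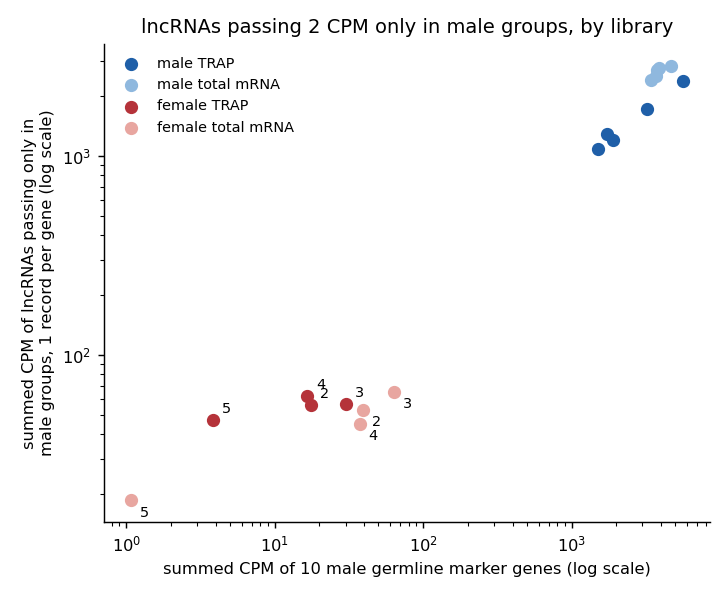
Summed CPM of the lncRNAs that passed 2 CPM only in male groups (1 record per gene, vertical axis, log scale) against the summed CPM of 10 male germline marker genes (horizontal axis, log scale) in each of the 18 libraries, with replicate numbers beside the female libraries. Female total mRNA replicate 5 lies lowest, at 18.64 and 1.08 CPM, and the other female total mRNA libraries lie at 45.09 to 65.33 and 37.38 to 63.51 CPM.

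CR9284 (2R, 21803615 to 21804338, plus strand, between genes) had enough reads in females to be tested with the filter over all 9 libraries. It was at 302.2, 179.2, 204.5, 225.6 and 161.5 CPM in male TRAP and 423.1, 344.4, 347.1, 385.6 and 426.3 CPM in male total mRNA. In females it was at 1.47, 3.74, 1.88 and 0.0444 CPM in TRAP and 3.09, 6.53, 3.89 and 0 CPM in total mRNA. Males and females did not overlap, and replicate 5 was again the lowest female library. The log2 male over female fold changes were 7.10 ± 0.67 in TRAP (edgeR adjusted p = 1.89e-10) and 7.25 ± 0.83 in total mRNA (edgeR adjusted p = 1.7e-12), and over the alternatives they ranged from 6.62 to 7.74 and from 6.44 to 7.98.

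CR32658 (X, in introns of Ten-a and of another lncRNA on the same strand) showed the same order, at 87.6 to 253.8 against 1.53 to 2.51 CPM in TRAP and 181.1 to 234.4 against 0.909 to 5.49 CPM in total mRNA (males against females). Its fold changes were 6.46 ± 0.36 and 6.48 ± 0.43 on the log2 scale (edgeR adjusted p = 8.18e-39 and 9.97e-43), while Ten-a, which encodes a teneurin that matches synaptic partners, was higher in females in total mRNA (-0.58, edgeR adjusted p = 0.014) and not called in TRAP (-0.13, edgeR adjusted p = 0.665). Other named records higher in males in total mRNA included X-linked CR32652 with 7.36 ± 0.54, CR32690 with 6.89 ± 0.41, CR42767 with 6.88 ± 0.50 and CR32582 with 2.95 ± 0.11 (edgeR adjusted p from 2.11e-18 to 1.56e-90). CR32582 was the most even of them in females, at 1.54 to 2.16 CPM in female total mRNA against 8.98 to 11.2 CPM in male total mRNA. Beside the 5 male libraries, 1 female library over 2 CPM was enough for such a record to be tested. Of the 390 records that passed only in male groups, 6 were thereby tested in total mRNA and 3 in TRAP. The filter thus largely fixed the male direction of records like these, and their values and those of CR9284 are a description.

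The lncRNAs with names that point to the testis showed the same direction at lower levels. Of the 14 TS lncRNAs, a set named for testis-specific expression, 13 had a higher mean in male than in female total mRNA, and in 10 the male libraries were all above the female ones, but only TS27 passed 2 CPM in a group. Over all records tested in total mRNA, the libraries of the sexes did not overlap, in either direction, in 69.7% (76.1% with the filter on either group), and 38.8% were called higher in males. These shares cover only records that passed the filter, so they are not matched to the TS lncRNAs. A share at the levels of the TS lncRNAs was not computed, and their counts are a description. TS27, uncertain because 35.6% of it lies opposite CR46087, was at 3.02 to 3.66 CPM in male total mRNA and 0.926 to 2.61 CPM in male TRAP, with 0 to 2 counts in each female library. Yu (2R) was at 3.66 to 4.69 CPM in male total mRNA, 1.13 to 3.17 CPM in male TRAP and 0 to 4 counts in each female library. Both were lower in male TRAP than in male total mRNA, by -0.84 ± 0.20 and -0.79 ± 0.26 (edgeR adjusted p = 0.000569 and 0.00846).

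Smaller male differences were seen in lncRNAs that both sexes expressed. cherub, which is known to segregate unequally in dividing neuroblasts, lies on 3R (11247631 to 11255339, minus strand, between genes). It was at 25.4, 14.2, 16.1, 20.3 and 14.5 CPM in male TRAP and 5.74, 5.57, 8.19 and 6.42 CPM in female TRAP, and at 18.4, 13.0, 11.7, 12.7 and 15.3 CPM in male and 7.55, 9.88, 5.88 and 4.9 CPM in female total mRNA. All male libraries were above all female ones of the same kind. The log2 male over female fold changes were 1.70 ± 0.24 in TRAP (edgeR adjusted p = 5.59e-09) and 1.43 ± 0.25 in total mRNA (edgeR adjusted p = 3.36e-10), while the nearest gene CG5214 differed by 0.01 and -0.05 (edgeR adjusted p = 0.987 and 0.669). CR43264 (X, in an intron of CG15765 on the other strand) was at 19.2 to 25.9 against 4.49 to 10.2 CPM in TRAP and 12.8 to 15.5 against 3.39 to 4.72 CPM in total mRNA, with changes of 1.73 ± 0.25 and 2.19 ± 0.12 (edgeR adjusted p = 2.43e-12 and 6.99e-65). CG15765 differed in the opposite direction in total mRNA, by -0.29 (edgeR adjusted p = 0.0167).

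Among the lncRNAs with higher levels in females, several were on the X chromosome. In TRAP 15 of 33 tested X-linked lncRNA records (10 of 22 genes) were higher in females (45.5%), against 18.1% of the other lncRNA records, while over all records the shares were 21.2% on X and 17.3% elsewhere. In total mRNA the X-linked share among lncRNA records was 62.1%, against 69.2% elsewhere, and 45.9% and 34.7% over all records. These shares are a description. Beside the lncRNAs described next, a CR30055 record was lower in males in total mRNA by -0.57 ± 0.13 (edgeR adjusted p = 9.47e-05).

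CR34335 lies on X (3545750 to 3546110, minus strand), in an intron of DIP-alpha, which codes for a synaptic recognition protein. It was at 1913.9, 1437.4, 1888.6, 1432.7 and 1286.5 CPM in male TRAP and 5145.4, 4007.6, 3477.9 and 3112.5 CPM in female TRAP. In total mRNA it was at 1579.7, 997.6, 899.8, 1131.2 and 1197.8 CPM in males and 3025.2, 3026.3, 2248.1 and 2007.2 CPM in females. The sexes did not overlap in either, and the log2 male over female fold change was -1.12 ± 0.23 in TRAP (edgeR adjusted p = 4.23e-05) and -0.73 ± 0.22 in total mRNA (edgeR adjusted p = 0.00352). DIP-alpha, on the same strand, was not called in TRAP (-0.40, edgeR adjusted p = 0.614), and its means in males were 40.66 CPM after TRAP and 1.52 CPM in total mRNA, a wider gap than that of the lncRNA.

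CR42861 (X, 13745017 to 13745476, 101 bases from Pdcd4) was at 3.9 to 6.26 CPM in males against 12.8 to 15.5 CPM in females in TRAP, and at 4.22 to 5.14 against 15.4 to 18.9 CPM in total mRNA. It was lower in males by -1.38 ± 0.10 in TRAP (edgeR adjusted p = 1.26e-15) and by -1.48 ± 0.10 in total mRNA (edgeR adjusted p = 9.12e-38), more than its neighbour Pdcd4, at -0.21 (edgeR adjusted p = 0.41) and -0.53 (edgeR adjusted p = 0.00918). CR40469 (X, 1664 bases from CG17636) was at 100.7 to 149.1 against 184.9 to 398.7 CPM in TRAP, a change of -1.08 ± 0.31 (edgeR adjusted p = 0.000471), and CR44423 (X, 2874 bases from sog) at 4.11 to 5.57 against 7.71 to 13.5 CPM, a change of -0.84 ± 0.20 (edgeR adjusted p = 0.000794). The uncertain CR43836, wholly on bases of CG10962 on the same strand, changed by -1.20 ± 0.26 in TRAP and a separate CG10962 record by -1.32 (edgeR adjusted p = 5.02e-06 and 1.98e-05). CR32194, which shares 17.7% of its bases with CG34253 and another lncRNA, changed by -0.74 ± 0.22 (edgeR adjusted p = 0.00369).

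Away from X, CR45406 (3L, 2579 bases from CG34382) was higher in females in TRAP, while the total mRNA ranges of the sexes overlapped. It was at 2.09, 2.46, 1.38, 1.78 and 2.73 CPM in male TRAP and 6.43, 5.79, 9.92 and 9.93 CPM in female TRAP, against 0.745 to 1.25 and 0.525 to 1.41 CPM in male and female total mRNA. The TRAP libraries of the sexes did not overlap and the change was -1.76 ± 0.23 (edgeR adjusted p = 1.54e-11). CR31781 on 2L was higher in females in both: its record at 16877500 to 16878300 was at 73.3 to 88.8 CPM in males against 125.9 to 178.6 CPM in females in TRAP and at 73.6 to 88.8 against 168.7 to 195.6 CPM in total mRNA, with changes of -0.74 ± 0.16 and -0.81 ± 0.07 (edgeR adjusted p = 0.000834 and 1.5e-14). This record lies 26 bases from CG32832 on the other strand, whose means were 30.35 and 56.89 CPM in the male groups and 0.15 and 0.54 CPM in the female groups.

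**Figure D5:**
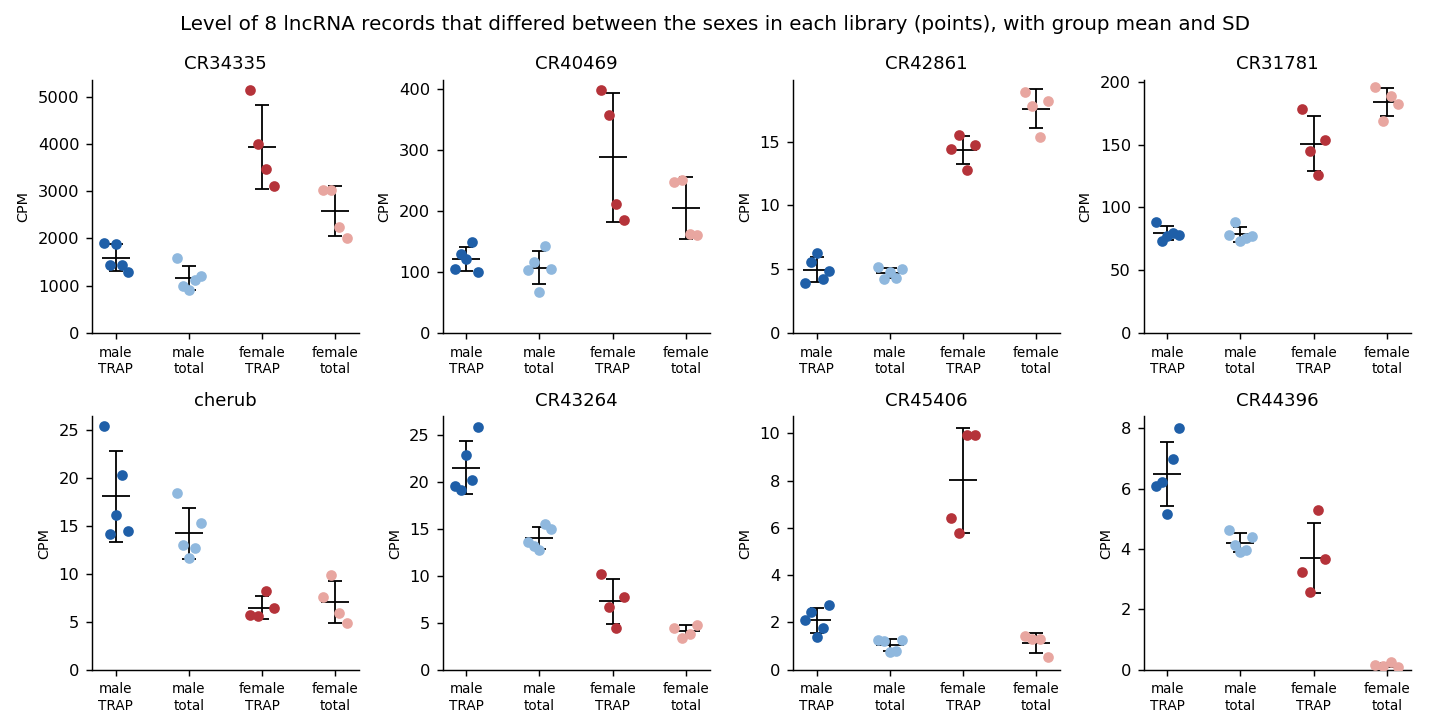
CPM (vertical axes, each from 0) of 8 lncRNA records in every library (points), with the group mean and SD (bars). CR34335, CR40469, CR42861 and CR31781 are higher in both female groups, cherub and CR43264 in both male groups, CR45406 is highest in female TRAP, and CR44396 is at 0.105 to 0.261 CPM in female total mRNA and at 2.58 CPM or more in the other 3 groups.

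In total mRNA the microRNA host records were lower in males as well. All 12 that were tested (7 genes) were called higher in females, beside 67.5% of the lncRNA records and 36.6% of all records tested. Their median log2 fold change was -0.46 and that of all lncRNA records tested -0.35. CR43459 changed most among the named ones, by -0.96 ± 0.11 (edgeR adjusted p = 2.7e-11), with 6.64 CPM in female and 2.56 CPM in male total mRNA on average. Of the 18 tested in TRAP, 2 were called higher in each sex.

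The last comparison asked whether TRAP enrichment differed between the sexes, as an interaction term over the 18 libraries (edgeR's quasi-likelihood test). It took in 583 lncRNA records, of which 187 records of 117 genes had a higher TRAP to total mRNA ratio in males (32.1%, against 47.5% of all 37005 records tested) and 75 records of 64 genes a higher ratio in females (12.9%, against 14.9%). These directions rest on the scaling. The median over all records was 0.44 with the TMM scaling used here and 0.07 with RLE scaling, under which 85 lncRNA records had the higher ratio in males and 82 the higher ratio in females. Of the 187 records, 85 kept their call with RLE scaling, and of the 75 records 73 did. A ratio near 0.44 was therefore that of the typical record, and 23 of the 262 calls involved a group at 0 in every library, where the fitted value depends on the small count that the model adds. Of the 75 records 66 passed 2 CPM only in male groups, as did 50 of the 187. Over all lncRNA records of that kind the median was 0.058 CPM in female total mRNA and 0.048 CPM in female TRAP. Among the 105 records that passed in all 4 groups, 87 had the higher ratio in males and 0 in females, or 47 and 3 with RLE scaling. The shares of all records with these pass patterns were not computed.

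The records with the smallest p in each direction were these. CR32582 was lower in TRAP than in total mRNA in both sexes by its CPM, at 7.24 to 8.22 against 8.98 to 11.2 in males and 0.637 to 0.881 against 1.54 to 2.16 in females, and the log2 ratio was higher in males by 1.15 ± 0.13 (edgeR adjusted p = 0.000848), and 0.78 with RLE scaling (edgeR adjusted p = 0.0184). The other pair, CR45018 records that share 41.8% and 39.4% of their bases with IP3K2, had 1.04 ± 0.19 and 1.06 ± 0.19 and are uncertain, as IP3K2 itself changed in the same way (1.16 in males, 0.22 in females). In the other direction CR44396, in an intron of beat-IIIc on the same strand, was at 6.1, 6.22, 5.17, 7.0 and 8.0 CPM in male TRAP and 4.63, 4.13, 3.89, 3.96 and 4.41 CPM in male total mRNA. Female TRAP held 3.24, 2.58, 5.29 and 3.67 CPM, and female total mRNA only 0.161, 0.126, 0.261 and 0.105 CPM, or 3 to 8 counts. The interaction was -3.53 ± 0.23 (edgeR adjusted p = 8.07e-06), -3.90 with RLE scaling, whereas beat-IIIc was higher in TRAP in both sexes (1.86 and 0.80). CR43639, in an intron of wb, followed the same order, with group means of 7.146, 7.147, 2.963 and 0.1246 CPM and an interaction of -4.16 ± 0.36 (edgeR adjusted p = 4.62e-05), and CR43484 had 0 to 2 counts in each female total mRNA library and 20 to 56 in each female TRAP library.

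Records with this pattern, present in male total mRNA, male TRAP and female TRAP and nearly absent from female total mRNA, also included CR45808 in an intron of Hipk and CR45979 in an intron of sfl. CR45808 was at 8.48 to 15.0, 13.4 to 14.5, 1.48 to 5.14 and 0.21 to 0.533 CPM in male TRAP, male total mRNA, female TRAP and female total mRNA, and it was higher in male than in female TRAP by 2.11 ± 0.38 (edgeR adjusted p = 1.59e-07). CR45979 was at 3.59 to 10.4, 1.43 to 2.0, 2.59 to 7.63 and 0.14 to 0.392 CPM. Among the records of this kind named here, CR44396, CR43639, CR45808 and CR45979 lie in introns of genes on their own strand, while CR43484 lies between genes, 4343 bases from the nearest one. The hosts Hipk, wb, beat-IIIc and sfl had log2 TRAP over total mRNA values of 1.03, 2.36, 1.86 and 0.97 in males, all called. In females wb and beat-IIIc were called, with 1.57 and 0.80, and Hipk and sfl were not, with 0.22 and 0.19 (edgeR adjusted p = 0.162 and 0.224). The part of host gene reads in these values was not tested.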

How the data were processed

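TRAP and total mRNA libraries from whole 48 hr APF pupae were examined. Per the methods, RNA was poly(A)-selected, prepared with a directional kit, sequenced as 100-bp single-end reads and aligned to dm6 with STAR 2.7.2a; SAMtools 1.2 is also named in the submitters' processing notes. The authors deposited raw counts of uniquely mapped reads per exon record made with featureCounts; its version, strand setting and annotation release are not given in the sources used here. The deposited normalized table was not used. Overlaps were computed from the counted coordinates with bedtools 2.31.1, and gene symbols came from the reference annotation. Records that overlap another exon are named as uncertain.

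Tests followed the study's design: edgeR 4.0.16 (R 4.3.3) exact test, two-sided, TMM scaling, tagwise dispersion, a filter of 2 CPM in 60% or more of the libraries in a comparison, Benjamini-Hochberg adjustment over all records tested and calls at FDR under 0.2. The interaction used edgeR's quasi-likelihood test with the filter in any 1 group. Printed CPM are counts scaled to the total of all records, without TMM, and SEs come from log2(CPM + 0.5) between libraries. The scripts were tested on simulated data with 200 changed records. Alternatives were RLE scaling, other filters, the quasi-likelihood test, DESeq2 1.42.0, a replicate block and leaving out each library. The floor of 3 counts allows for counting error only and not for other differences between libraries.

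Same-numbered TRAP and total mRNA libraries of a sex came from the same lysate. Their deviations from the group means correlated at 0.129 to 0.568 in males and 0.039 to 0.547 in females. Members and lists were chosen with earlier results of these data known. Named were all lncRNAs with a symbol other than CR and digits and, per comparison and direction, up to 6 records (1 per gene) with the largest log2 fold change among called records of at least 5 CPM in the higher group, without overlap between libraries or with other exons, up to 2 that overlap an exon, and for the interaction the 3 with the smallest p. The records listed by microRNA overlap or by a TRAP-only or female-only pattern were chosen after their values were seen.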

Additional observations from a re-analysis of the deposited data

Results flagged for a closer look

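In 11 of 176 groups of library values 1 library stood apart from the rest of its group by Dixon's test at the 95% level, which chance alone gives in about 1 group in 20 (0.05). In male total mRNA these were marge at 15.7 CPM, CR32218 at 11.7 CPM and the CR31781 record on 2L at 88.8 CPM. In female TRAP they were mimi at 476.7, Hsromega at 531.9, CR44024 at 42.4, Yu at 0.0912 and TS27 at 0.0228 CPM, the last 2 being 4 counts and 1 count beside libraries at 0. In female total mRNA they were CR42862 at 924.2, CR45406 at 0.525 and CR42767 at 0.105 CPM, all 3 the lowest of their group.

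The TRAP to total mRNA ratio differed between the sexes in the interaction test for these 6 records, those with the smallest p in each direction. The log2 male over female value was 1.15 for CR32582 and 1.04 and 1.06 for the CR45018 records that overlap IP3K2. It was -3.53 for CR44396, -4.16 for CR43639 and -5.29 for CR43484, where female total mRNA was at 0 to 2 counts and the value depends on the count the model adds.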

How the results depend on the processing

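Over 249 results of named records and 4166 alternative values, 4026 kept direction and side of the threshold, 67 fell short of it, 61 newly passed it and 12 changed sign. Without a filter, which tests many more records, 626 and 932 lncRNA records were higher in male TRAP and male total mRNA, 631 and 128 in female TRAP and female total mRNA, 1225 and 165 in male and female TRAP, and 1442 and 269 in male and female total mRNA, and 294 had the higher TRAP ratio in females. With the filter on either group these were 147 in male TRAP against total mRNA, 240 in male against female TRAP, and 397 and 123 in male and female total mRNA. For the interaction 85 records were higher in males with RLE scaling and 97 with DESeq2. Passing 1 CPM were 651 and 754 records in male TRAP and male total mRNA, and passing 5 CPM 202, 228, 115 and 89 in male TRAP, male total mRNA, female TRAP and female total mRNA. The replicate block gave 35 records higher in male than in female TRAP, where numbers share no lysate, and changed no other count by over 1.5 times; of 249 named results 1 lost and 10 gained a call. Without 1 library the records higher in male TRAP than female TRAP ranged from 19 to 174 and in male than female total mRNA from 18 to 344, the high values following from fewer female libraries under the filter. Values of uncalled sex differences changed sign in total mRNA for noe (-0.29 with the filter on either group, -0.44 to 0.11 without 1 library), CR45232 (-0.25, -0.36 to 0.07) and CR32218 (-0.23, -0.37 to 0.13), and in TRAP for CR44024 (-0.52 to 0.35 without 1 library). In total mRNA the filter on either group moved records tested under both filters by a median of -0.29. The cause of these changes of sign was not tested. Low counts limit the female libraries, where 57 male-only records were under 3 counts in each.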

Other observations

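The 24 records (19 genes) that passed only in female groups were low, with medians of 2.55 CPM in female TRAP and 2.03 CPM in female total mRNA against 1.28 and 0.86 CPM in the male groups, and 9 of them were on X. The highest was CR45473 (X), with means of 4.45 and 3.31 CPM in female TRAP and female total mRNA and 1.66 and 0.99 CPM in male TRAP and male total mRNA. CR43166 (3R) and both CR42868 records (2R) were in female TRAP but nearly absent from total mRNA, with 2.53, 2.79 and 2.64 CPM in female TRAP and 0.09, 0.31 and 0.32 CPM in female total mRNA. The best-covered flam record had 14 to 55 counts in each female TRAP library and 1 to 26 in each male TRAP library, but 0 or 1 in each total mRNA library of either sex. These records were chosen after their values were seen.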
